A study of Mus musculus with 8 samples.

Results

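Regions of 5-hydroxymethylcytosine (5hmC) seen only in TET2-knockout cells are described here. Peaks of 4 libraries of immunoprecipitated DNA were merged wherever they touched or overlapped on the 19 autosomes, which gave 341091 union regions. Of these, 4402 regions held a peak in both TET2 Knock-Out (KO) libraries and in neither Wild-Type (WT) library, and they are called KO-only regions. They made up 1.29% of all union regions. The opposite pattern, peaks in the WT pair alone, was found in 6562 regions (1.92%), called WT-only, and 205439 regions held a peak in every library. These classes were chosen by the presence and absence of peaks, that is by the same KO and WT calls, so their numbers and peak strengths are descriptions without a test. With 2 libraries per genotype, an exact test between genotypes could in any case not give a p below 0.333.

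The libraries were made from genomic DNA of germinal center B cells of C57BL/6 mouse spleens, by hydroxymethylated DNA immunoprecipitation and sequencing (hMeDIP-seq). The KO group had replicates 2 and 3 of TET2 Knock-Out cells, and the WT group had replicates 2 and 3 of Wild-Type cells. Each also had input libraries, 4 in all, which were not analysed here. The labels give no age, treatment, allele or Cre driver, and leave unsaid whether replicates are separate animals, so the spread between libraries may be technical.

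TET2 is a dioxygenase that oxidises 5-methylcytosine to 5hmC, mostly at CG pairs, and TET1 and TET3 carry out the same reaction. 5hmC is an intermediate of DNA demethylation and is common in gene bodies and at enhancers of active genes. Germinal center B cells divide rapidly while they mutate and select their antibody genes, and TET2 is often mutated in human lymphomas. Loss of TET2 is known for lowering 5hmC.

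A peak is a call made separately in each library, and a list holds no value for a place that was not called. A KO-only region can therefore carry 5hmC signal in WT cells below the caller's limit. The lowest −log10 q in a list, q being the caller's adjusted p-value, lay between 2.01 and 2.20. In bulk DNA, a mark carried by few cells and a weak mark in all of them cannot be told apart. The libraries differed as well: the most frequent local background, recovered from the deposited values of the peaks, was 11.6 and 10.9 reads in KO replicates 2 and 3, against 8.66 and 11.7 reads in WT replicates 2 and 3. The lists held 268502 and 268919 autosomal peaks in KO replicates 2 and 3, against 259588 and 288705 in WT replicates 2 and 3. WT replicate 2 thus had the lowest recovered background and the shortest list. No source says whether input or pull-down reads set this background. Regions called in both KO libraries and in WT replicate 3 but not in WT replicate 2 numbered 12337, against 4796 called in both KO libraries and in WT replicate 2 but not in WT replicate 3. When every list was cut to the same number of its strongest peaks, 5030 regions met the rule, and they overlapped 3705 of the 4402.

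Sequence can be shown for KO-only regions that reach a gene start. The RefSeq promoter windows of GRCm38.p6, which run from 250 bases before to 50 after a start, were touched by 14 KO-only regions, 5 at protein-coding genes (Papolg, Tbc1d5, Col23a1, Art5 and Fcer2a) and 9 at long noncoding RNAs. The stretches that the KO-only region covered are printed 5′ to 3′ on the gene's strand, with CG pairs, the sites that TET enzymes mostly act on, in capitals. They are shown because they run from a CG-dense start to a CG-poor one. Stretches without any CG pair, such as that of the lncRNA Gm46129, are not printed. At Papolg, Tbc1d5 and Col23a1 both summits lie outside the printed stretch. Fcer2a, which ranked 11 of the 14 by its weaker peak, was added after its values were seen, because its product is a B cell surface protein.
Papolg, chr11:23895221-23895362, minus strand: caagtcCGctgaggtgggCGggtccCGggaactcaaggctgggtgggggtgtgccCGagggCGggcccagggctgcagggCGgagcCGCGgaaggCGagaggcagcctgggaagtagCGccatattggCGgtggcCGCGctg
Tbc1d5, chr17:51179303-51179409, minus strand: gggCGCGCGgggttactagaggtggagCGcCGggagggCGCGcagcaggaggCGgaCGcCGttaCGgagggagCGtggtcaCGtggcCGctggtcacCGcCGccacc
Col23a1, chr11:51289670-51289744, plus strand: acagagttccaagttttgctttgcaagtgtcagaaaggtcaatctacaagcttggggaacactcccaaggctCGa
Art5, chr7:102100276-102100479, minus strand: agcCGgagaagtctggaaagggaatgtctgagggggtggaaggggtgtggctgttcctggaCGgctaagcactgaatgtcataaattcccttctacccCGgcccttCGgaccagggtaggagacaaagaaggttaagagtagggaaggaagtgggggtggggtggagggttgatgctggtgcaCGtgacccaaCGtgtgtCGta
Fcer2a, chr8:3690341-3690640, minus strand: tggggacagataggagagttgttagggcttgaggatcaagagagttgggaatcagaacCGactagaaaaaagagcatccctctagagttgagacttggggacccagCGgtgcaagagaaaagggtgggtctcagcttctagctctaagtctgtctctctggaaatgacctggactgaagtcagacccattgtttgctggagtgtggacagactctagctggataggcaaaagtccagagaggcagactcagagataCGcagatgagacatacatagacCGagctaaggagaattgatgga
1700047L14Rik, chr5:108763592-108763828, plus strand: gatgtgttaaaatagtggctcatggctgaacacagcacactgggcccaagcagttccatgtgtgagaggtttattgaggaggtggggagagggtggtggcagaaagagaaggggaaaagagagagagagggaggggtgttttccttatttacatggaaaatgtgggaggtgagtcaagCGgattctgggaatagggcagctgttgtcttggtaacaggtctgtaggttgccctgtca

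The covered stretch held 13 CG pairs in 142 bases at Papolg, which encodes a poly(A) polymerase, and 16 in 107 bases at Tbc1d5, which encodes a GTPase-activating protein of endosomal sorting. At Col23a1, a transmembrane collagen gene, the region covered 75 bases at the upstream edge of the window, with 1 CG pair. At Art5, an ADP-ribosyltransferase gene, 204 bases with 7 CG pairs were covered. The lncRNA 1700047L14Rik had 237 covered bases and 1 CG pair. Fcer2a, which encodes the low-affinity IgE receptor CD23 of B cells, had a window covered over all 300 bases, with 4 CG pairs. The same region covered 62 bases, with 1 CG pair, of a second Fcer2a window that is not printed. The promoter windows on KO-only regions held a median of 6 CG pairs, beside 7 in windows on WT-only regions, 6 in windows on regions called in every library and 7 in all 31396 windows. By this count the starts with a KO-only region were neither richer nor poorer in CG pairs than other gene starts by more than 1 pair at the median.

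Peaks at these starts were weak. The fold enrichment of a peak is its height over the local background, as the authors' lists give it. At Papolg it was 3.74 in KO replicate 2 and 4.04 in KO replicate 3, with 46 and 47 reads at the summit. The Papolg summits lay 77 and 141 bases downstream of the gene start. At Tbc1d5 the fold was 4.06 and 3.59, from 50 and 46 reads, with summits 187 and 185 bases downstream of the start. Both genes have their peak just inside the transcribed part. At Col23a1 the fold was 3.41 and 4.04, with summits at -409 and -394 bases from the start. At Art5 it was 3.05 and 3.20, with summits at -245 and -244 bases and the nearest WT peak 360 bp away, in WT replicate 3. In both of these genes the negative positions lie upstream of the start. At 1700047L14Rik the fold was 3.74 and 3.69, with summits at -185 and -172 bases and the nearest WT peak 15257 bp away. At Fcer2a the 2 KO libraries differed more, at 3.11 and 4.89 with 38 and 57 reads. The Fcer2a summits lay at -220 and -259 bases from the start of the printed window. From a second Fcer2a start they lay 251 and 212 bases downstream. WT replicate 2 had a peak only 26 bp from the Fcer2a region, whereas the nearest peak of WT replicate 3 was 3132 bp away. The Fcer2a call therefore rests on 26 bp between neighbouring peaks. The other 8 lncRNA starts had regions with folds of 3.0 to 3.74 in KO replicate 2 and 2.75 to 3.67 in KO replicate 3. Both summits lay inside a promoter window in 5 of the 14 regions.

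Across all 4402 KO-only regions, peaks were weak in both KO libraries. The median fold enrichment was 3.66 in KO replicate 2 and 3.54 in KO replicate 3, a mean of 3.60 ± 0.0889 (SD, n = 2), beside medians of 5.10 and 4.39 for all autosomal peaks of the same lists (4.74 ± 0.502, SD, n = 2). The median −log10 q of the KO-only regions, 12.2 and 11, stood at percentiles 13.5 and 20 of these lists. From percentile 5 to 95 the fold ran from 2.74 to 4.43 in KO replicate 2 and from 2.61 to 4.47 in KO replicate 3. No KO-only region had a fold of 5 or more in both KO libraries, while 61 had it in at least 1. By comparison, 66.8% and 46.8% of the regions called in every library reached 5-fold in KO replicates 2 and 3. WT-only regions were weak too, with medians of 3.92 and 3.55 in WT replicates 2 and 3 (3.73 ± 0.265, SD, n = 2). The 2 classes called in a single genotype thus sat at the low end of their own lists. A summit in a KO-only region had a median of 46 reads in KO replicate 2 and 42 in KO replicate 3, with lows of 28 and 26 and highs of 147 and 164.

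**Figure D1:**
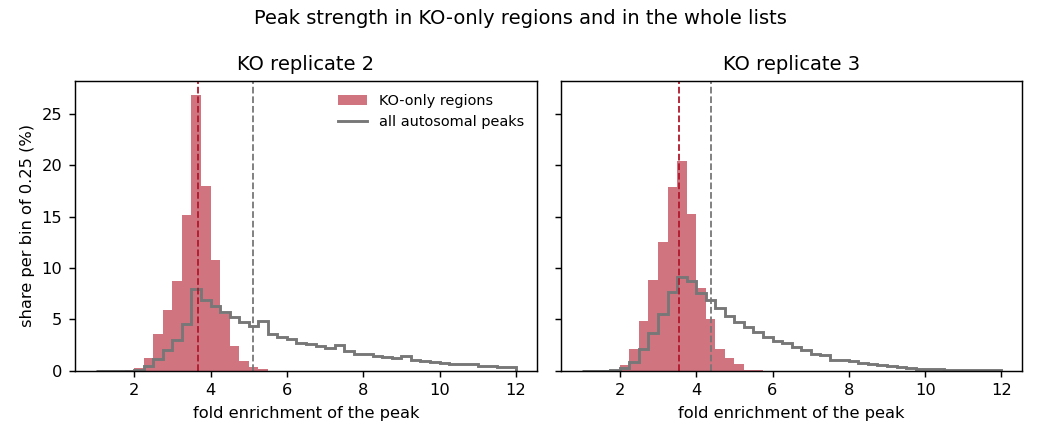
Fold enrichment (x axis, ratio over local background) against the share of peaks per bin (y axis, %) in KO replicate 2 (left) and KO replicate 3 (right). Red filled steps are the 4402 KO-only regions and grey lines all autosomal peaks of the list, with dashed lines at the medians; KO-only regions pile up around 3.66 and 3.54, below the list medians of 5.10 and 4.39.

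The strength of a KO-only region was loosely related between the KO libraries. Over the 4402 regions the Spearman correlation of the fold between KO replicates 2 and 3 was 0.345 and the Pearson correlation 0.333, given as a description over regions that share libraries and a narrow range set by the rule. KO replicate 3 had the higher fold of the pair in 1850 regions (42.0%). Because the rule places both KO peaks in 1 region, close summits are in part fixed by it. The summits of the 2 KO peaks in a region were a median of 33.0 bp apart, and 67.4% lay within 50 bp. Between the KO libraries in regions called in every library the median was 32.0 bp, with 68.1% within 50 bp. For the WT libraries the median was 27.0 bp in WT-only regions and 19 bp in regions called in every library.

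**Figure D2:**
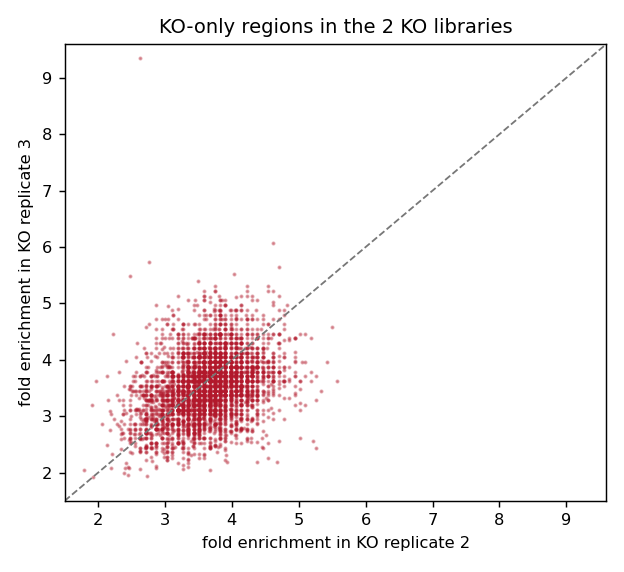
Each point is 1 of the 4402 KO-only regions, with its fold enrichment in KO replicate 2 on the x axis and in KO replicate 3 on the y axis (ratios over local background); the dashed line marks equal values. Most of the cloud lies between 2 and 5 on both axes, with a single far point at 2.63 and 9.35.

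KO-only regions were short. Their median width was 370 bp, with a middle range of 352 to 401 bp and a highest value of 990 bp, and together they covered 1.73 Mb. WT-only regions had a median of 365 bp and covered 2.63 Mb, and regions called in every library had a median of 495 bp. The narrowest peak in a list measured 332 and 262 bp in KO replicates 2 and 3, so most KO-only regions were near the shortest that the caller reported. High local background was not a feature of them: it was over 1.5 times the usual value in 0.545% of the regions in KO replicate 2 and 1.57% in KO replicate 3, beside 1.94% and 4.27% of the regions called in every library.

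The region with the strongest weaker peak lay at chr14:57676129-57676511, 8.09 kb from Xpo4, a nuclear transport receptor gene. Its fold was 4.82 in KO replicate 2 and 4.97 in KO replicate 3, from 61 and 58 reads. Within Csmd1, a large gene for a complement-control membrane protein, chr8:16339821-16340190 had 4.78 and 4.89, and the nearest WT peak was 11387 bp away in WT replicate 2 and 11388 bp away in WT replicate 3. These 2 regions had nearly equal folds in both KO libraries. Within Trpm6, a magnesium channel gene, chr19:18737656-18738046 had 4.70 and 5.65, with WT peaks 750 and 742 bp away. Within Icos, which encodes a costimulatory receptor of T cells, chr1:60970368-60970762 had 4.78 and 4.8. Grid1, a glutamate receptor gene, held chr14:34975485-34975955 with 5.50 and 4.59, and Mical3, an actin-modifying oxygenase gene, held chr6:120994267-120994656 with 4.62 and 4.97. The other 4 of the 10 strongest lay outside genes, among them regions 168 kb from 1700015G11Rik, 569 kb from Reg3g and 260 kb from Cadm2. Even in these 10, the higher of the 2 folds did not pass 6.07, the value of the region nearest Reg3g in KO replicate 3.

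The widest regions had uneven or low folds. The widest, chr4:40878138-40879127, was 990 bp long, lay 24.6 kb from the galactosyltransferase gene B4galt1 and had a fold of 3.27 and 4.55. A region of 935 bp in Spata1 had 1.79 and 2.04 over a local background of 27.5 and 27.9 reads, above the usual value of both libraries. At chr10:6479297-6480206, 111 kb from Gm3213, KO replicate 2 had a fold of 2.63 from 32 reads and KO replicate 3 a fold of 9.35 from 110 reads, the highest fold of any KO-only region. KO replicate 3 alone carries that height. A region in Prkce, a protein kinase C gene, had 2.95 and 2.61, and one 312 kb from Aadat had 2.95 and 2.78.

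At the edge of the rule, the weakest members were barely called in 1 KO library. The region chr15:37502961-37503585 in Ncald, a neuronal calcium sensor gene, had a −log10 q of 2.48 in KO replicate 2 and 11.1 in KO replicate 3. One lying 21.5 kb from Chd1l had 2.61 and 8.29, and one 54.7 kb from Slc7a14 had 7.21 and 2.62. Just outside the rule were regions with a weak peak in WT replicate 3. In Sugct, chr13:17130370-17130955 had a −log10 q of 8.29 and 7.77 in KO replicates 2 and 3, against 2.83 in WT replicate 3. Near Rreb1 a region had 7.27 and 7.71 in the KO libraries, against 3.17 in WT replicate 3, and in Sox6 a region had 9.35 and 4.85 in the KO libraries, against 3.17 in WT replicate 3. The members were picked for their weaker KO peak, so KO strengths on the 2 sides are not comparable.

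KO-only regions lay among WT peaks, which are dense in these lists. The nearest WT peak was a median of 2404 bp away, with a middle range of 966 to 5113 bp and a highest distance of 52.4 kb. It lay within 500 bp for 603 regions (13.7%), within 1 kb for 1137 (25.8%), within 5 kb for 3282 (74.6%) and within 10 kb for 4060 (92.2%). WT-only regions lay a median of 2030 bp from the nearest KO peak, with 15.8% within 500 bp. The KO-only regions were scattered rather than clustered: neighbouring ones on a chromosome were a median of 372 kb apart, and 85 gaps (1.94%) were 10 kb or less. WT-only regions, which were more numerous, had a median gap of 219 kb and 324 such gaps (4.95%).

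The strength of neighbouring common regions was described in a comparison added after the data were seen. The 7819 regions called in every library that lay within 10 kb of a KO-only region had a mean fold of 99.7% and 100% of the library's mean over all such regions in KO replicates 2 and 3, against 99.8% and 99.4% in WT replicates 2 and 3. The genotype means were 99.9% ± 0.264 in KO and 99.6% ± 0.259 in WT (SD, n = 2 each), a difference of 0.27 percentage points. The KO and WT values overlap, and the difference is about as large as the spread between libraries of a genotype. Near WT-only regions the same measure was 97.1% ± 0.164 in KO and 97.2% ± 0.668 in WT, a difference of -0.06 points.

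The authors' deposited tables of differential regions hardly contained the KO-only regions. Of the 4402, 1 region (0.0227%) overlapped the authors' KO-higher table, which has 41 autosomal regions, and 0 overlapped the WT-higher table of 24503, which allows a share of up to 0.0682%. The single overlap was at chr3:101366259-101367016, 10 kb from the immunoglobulin superfamily gene Igsf3, with a fold of 3.82 in KO replicate 2 and 3.45 in KO replicate 3. In contrast 760 WT-only regions (11.6%) overlapped the authors' deposited WT-higher table. Over all union regions the shares were 0.00616% for the KO-higher table and 6.71% for the WT-higher table. These tables rest on the same contrast as the rule, so the counts describe how the 2 kinds of call meet and test nothing.

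By position, 1587 KO-only regions (36.1%, 95% Wilson interval 34.6 to 37.5%) had their midpoint inside a protein-coding gene, 214 (4.86%, 4.26 to 5.54%) within 2 kb of a gene end and 2601 (59.1%, 57.6 to 60.5%) outside both. The intervals cover counting error only. All union regions had 36.5% inside genes and 5.72% near gene ends, so KO-only regions were close to the background inside genes and below it at gene ends. Regions called in every library had 35.5% inside genes and 5.21% near gene ends, both within the KO-only intervals. The low share at gene ends was thus not particular to KO-only regions. WT-only regions had 41.5% inside genes and 8.02% near gene ends. On promoter windows lay 0.318% of the KO-only regions (0.190 to 0.533%), against 0.853% of the WT-only regions and 0.795% of all union regions. Far from genes the order turned round: 1262 KO-only regions (28.7%) lay over 100 kb from any protein-coding gene, against 19.5% of the WT-only regions and 24.8% of all union regions.

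Single libraries bear on the share near gene ends. When WT replicate 2 was left out, so that WT replicate 3 alone stood for WT, 6.22% of 9258 regions lay near gene ends. Of all union regions 5.60% did. When KO replicate 3 was left out the share was 5.85%, beside 5.75%. Without KO replicate 2 or WT replicate 3 it was 5.12% and 5.04%, beside 5.71% and 5.68%. On promoter windows the share was 0.369% without KO replicate 2 and 0.714% without KO replicate 3, beside 0.759% and 0.812% of all union regions. It was 0.572% without WT replicate 2 and 0.524% without WT replicate 3, beside 0.771% and 0.785%. Over 100 kb from genes the shares were 28.2%, 26.3%, 25.6% and 27.9% in the same order, beside 24.8%, 24.6%, 25% and 24.8%. By construction each of these 4 sets holds all 4402 KO-only regions. The low share on promoter windows and the high share far from genes were thus partly fixed in advance. The regions added by leaving a library out were not counted apart. None of the 919 autosomal miRNA hairpins in RefSeq overlapped a KO-only region, while 3 overlapped a WT-only region and 26 a region called in every library. These classes hold 4402, 6562 and 205439 regions, so a count of 0 in the smallest does not set it apart.

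**Figure D3:**
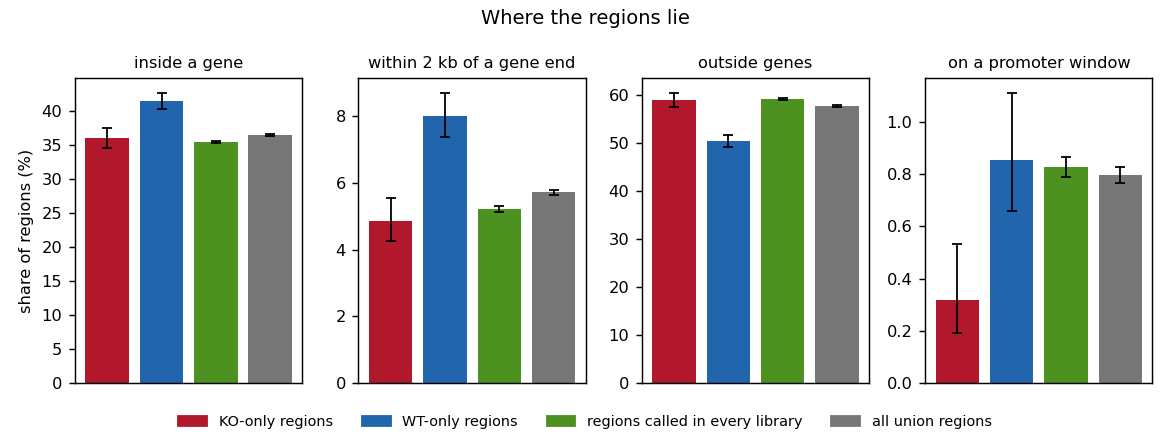
Share of regions (y axes, %, each panel on its own scale) by position of the midpoint relative to protein-coding genes, and in the last panel by overlap with a promoter window, for KO-only (red), WT-only (blue), every-library (green) and all union regions (grey). Bars are shares and whiskers 95% Wilson intervals for counting error. KO-only regions have the lowest share on promoter windows (0.318%). Near gene ends (4.86%) their interval includes the 5.21% of every-library regions.

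Across the 19 autosomes the KO-only share of union regions was lowest on chromosome 17, at 1.07% (148 of 13849, interval 0.910 to 1.25%). It was highest on chromosome 6, at 1.46% (298 of 20345, 1.31 to 1.64%). These chromosomes were picked as the extremes. Their intervals, which cover counting error only, do not overlap. Of 2413 windows of 1 Mb that held a union region, 390 held 0 KO-only regions, 707 held 1 and 100 held 5 or more. The densest windows were picked after their counts were seen. The first, chr5:137000001-138000000, held 13 KO-only regions among 246 union regions (5.28%) and 4 WT-only regions. The next, chr16:81000001-82000000, held 8 of 116 and chr1:35000001-36000000 held 8 of 200.

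Gene by gene, KO-only regions were spread thinly. A gene window here is the span of a protein-coding gene plus 2 kb on both sides. Of 17548 gene windows with a union region, 1519 (8.66%) held at least 1 KO-only region, and 2646 (15.1%) held at least 1 WT-only region. Among the 1519, 1291 genes held 1 KO-only region, 159 held 2, 42 held 3 and 27 held 4 or more. Counted over these windows, 1852 of 150276 union regions (1.23%) were KO-only and 3418 (2.27%) WT-only, which is the background for the shares that follow.

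The genes with the most KO-only regions were very long genes, many of them known for roles at neuronal synapses and in cell adhesion. Lrp1b, an endocytic receptor gene with a span of 2058 kb, had 6 of 225 union regions KO-only (2.67%). Its 6 regions had folds of 2.88 to 4.76 in KO replicate 2 and 3.20 to 4.89 in KO replicate 3. Each of 7 genes had 5 KO-only regions: Lrrtm4, a synaptic leucine-rich repeat gene, among 105 union regions; Gpc6, a glypican gene, among 127; the contactin gene Cntn5 among 134; Ctnna2, a neuronal catenin gene, among 137; Csmd1 among 171; the adhesion gene Lsamp among 248; and the phosphatase receptor gene Ptprd among 257. With 4 each followed Epha3, an ephrin receptor gene, among 31, the receptor gene Gpr158 among 43, Gmds, an enzyme gene of fucose synthesis, among 54 and the adhesion gene Kirrel3 among 73. The KO-only share of their union regions was 4.76% in Lrrtm4, 3.94% in Gpc6, 3.73% in Cntn5, 3.65% in Ctnna2, 2.92% in Csmd1, 2.02% in Lsamp and 1.95% in Ptprd, beside 1.23% over all gene windows, in genes picked for their counts. When KO replicate 2 was left out, Lrp1b had 19, Lsamp 25 and Ptprd 22 KO-only regions. Genes with a span over 300 kb held 535 of 38101 union regions as KO-only (1.40%) and 1.71% as WT-only.

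By share, among genes with at least 3 KO-only regions, other genes led. They were picked for a high share, and over all gene windows 1.23% of union regions were KO-only. Insc, whose product orients the mitotic spindle, and Mfsd6, a membrane transporter-like gene, each had 3 of 15 union regions KO-only (20%) and 0 WT-only. Only 15.1% of all gene windows with a union region held a WT-only region, so that 0 does not set Insc and Mfsd6 apart. In Insc the folds in KO replicates 2 and 3 were 4.22 and 4.30 at chr7:114754552-114754931, 3.59 and 3.03 at chr7:114769829-114770160, and 3.19 and 3.96 at chr7:114847763-114848131. All 3 had WT peaks 3660 to 7951 bp away. In Mfsd6 the folds were 3.41 and 4.21, 3.66 and 3.45, and 3.51 and 2.95, and the last region had a peak of WT replicate 3 at 587 bp. Prag1, a pseudokinase gene, and Trpm6 each had 3 of 20 (15.0%), Epha3 had 4 of 31 (12.9%), the GTPase-activating protein gene Arhgap32 3 of 29 (10.3%), Gpr158 4 of 43 (9.30%) and the cadherin gene Cdh8 3 of 37 (8.11%). The Prag1 regions at chr8:36096750-36097137 and chr8:36097200-36097584 are neighbours, with folds of 2.79 and 2.53 in the first and 3.43 and 2.95 in the second. In each of these 8 windows most other union regions were called in every library: 8 of 15 in Insc and in Mfsd6, 10 of 20 in Prag1 and in Trpm6, 18 of 31 in Epha3, 18 of 29 in Arhgap32, 22 of 43 in Gpr158 and 22 of 37 in Cdh8. Prag1 had 1 KO-only region and Cdh8 2 when peaks within 500 bp were merged, and Cdh8 had 1 with equal numbers of peaks in the lists.

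**Figure D4:**
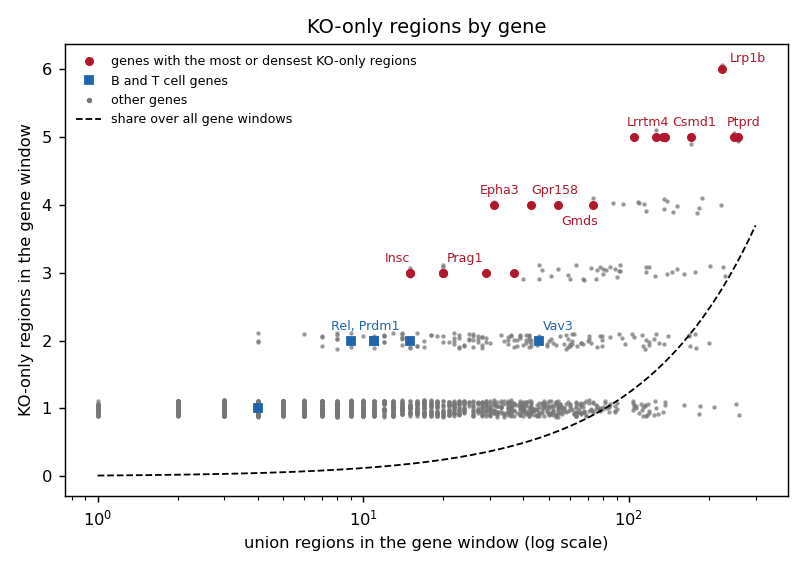
Each point is a protein-coding gene window with at least 1 KO-only region, by the number of union regions (x axis, log scale) and of KO-only regions (y axis, grey points spread slightly up and down for visibility). Red circles are the genes with the most or the densest KO-only regions, blue squares are B and T cell genes named in the text, and the dashed line is the share over all gene windows, 1.23%; Lrp1b stands highest with 6 of 225.

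Lists of germinal center B cell genes held few KO-only regions for their number of union regions. Of 36 identity genes, 35 were on autosomes, and their windows held 9 KO-only regions among 947 union regions (0.95%), beside 34 WT-only regions (3.59%). B cell receptor signalling genes held 6 of 886 (0.677%), beside 2.60% WT-only, and lymphoma suppressors and drivers held 3 of 409 (0.733%), beside 3.67% WT-only. These 3 shares are under the background of 1.23%, with small counts. The enzymes and binding proteins of 5-methylcytosine and 5hmC held 0 of 147, which allows a share of up to 2.04%, beside 10 WT-only regions (6.80%).

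The B cell lists depend on WT replicate 2 as well. When it was left out, the KO-only share of union regions was 5.25% for identity genes, 3.92% for B cell receptor signalling and 5.01% for lymphoma genes. All 3 then stood above the background, 2.95% over all gene windows. Without WT replicate 3 they were 2.18%, 2.24% and 1.78%, beside 4.96%. Which WT library sets absence thus turns the order of these lists against the background. Without KO replicate 2 they were 3.10%, 4.62% and 4.95%, beside 6.47%, and without KO replicate 3 they were 3.97%, 4.33% and 4.34%, beside 4.59%.

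The other lists had shares on both sides of the background of 1.23% over all gene windows, mostly from small counts. CD40 and NF-kB signalling genes held 3 KO-only of 184 (1.63%), beside 4.89% WT-only. Plasma cell genes held 4 of 216 (1.85%), beside 2.31% WT-only, antigen presentation genes 2 of 163 (1.23%), beside 4.29%, and cell cycle genes 1 of 171 (0.585%), beside 2.34%. Markers of other splenic cells had 1 of 95 (1.05%) for myeloid cells and 2 of 165 (1.21%) for T cells, near the background. Those of erythroid cells and megakaryocytes had 0 of 34, which allows a share of up to 8.82%. Single libraries moved these shares too. Without WT replicate 2, CD40 and NF-kB genes had 5.26%, plasma cell genes 4.48% and antigen presentation genes 5.88%, beside 2.95% over all gene windows. Without WT replicate 3 they had 2.30%, 6.97% and 1.85%, and T cell markers 7.74%, beside 4.96%. A 5hmC peak is no measure of expression, so these counts do not check which cells were in the samples. The neuronal synapse and adhesion genes were the only one of the 12 lists with more KO-only than WT-only regions, 69 (1.56%) against 55 (1.24%) of 4431 union regions, and 25 of the 30 genes held at least 1 KO-only region and 22 at least 1 WT-only region. At least 1 KO-only region was held by 59.1% of the genes with a span over 300 kb and by 8.66% of all gene windows. Without WT replicate 2 that list had 2.89%, beside 2.95% over all gene windows, without WT replicate 3 6.27%, beside 4.96%, without KO replicate 2 8.22%, beside 6.47%, and without KO replicate 3 4.63%, beside 4.59%.

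**Figure D5:**
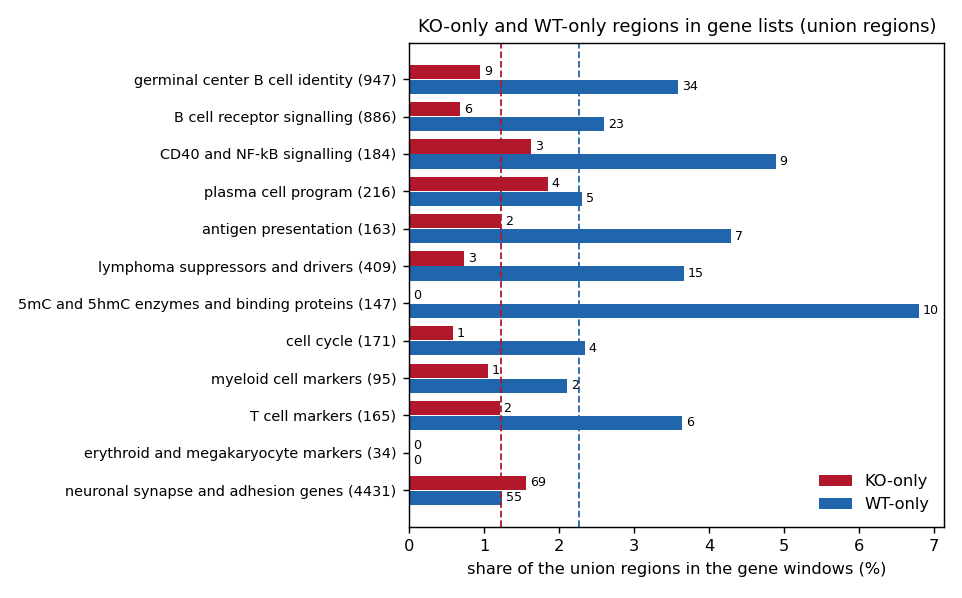
Share of the union regions in the gene windows of each list (x axis, %) that were KO-only (red, upper bar) or WT-only (blue, lower bar); numbers at the bars are counts of regions, and those in brackets are the union regions of the list. Dashed lines mark the shares over all gene windows, 1.23% and 2.27%; the neuronal list has the longer red bar, with 69 against 55 regions.

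Among B cell genes, Prdm1, which encodes the plasma cell regulator Blimp-1, had 2 KO-only regions of 11. At chr10:44511653-44512061 the fold was 4.38 in both KO libraries, from 54 and 51 reads, with WT peaks 1228 and 1222 bp away. At chr10:44521377-44521793 it was 2.89 and 2.70. The first Prdm1 region is above the median of the KO-only regions in both KO libraries and the second below it. Ell2, an elongation factor gene active in plasma cells, also had 2 regions, of 15, with folds of 3.11 and 3.54 at one and 3.51 and 3.33 at the other. In Rel, an NF-kB subunit gene, chr11:23757658-23758020 had 3.27 and 3.62 and lay 138 and 73 bp from peaks of WT replicates 2 and 3, while chr11:23764921-23765267 had 3.11 and 3.45 and lay 2067 and 6375 bp away. Traf2, a signalling adaptor gene of CD40, had 1 of 4, with 3.19 and 3.20. Of these 4 genes 0 had a WT-only region. Among all gene windows with a union region only 15.1% had one, so this does not set the 4 genes apart.

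Spib, a B cell transcription factor gene, had 1 KO-only region of 9, at 3.11 and 2.78, and Mybl1, a transcription factor gene expressed in germinal center B cells, had 1 of 6, at 3.59 and 3.53, 0.364 kb outside the gene. In the antigen receptor pathway, the exchange factor gene Vav3 had 2 of 46, the calcium channel gene Itpr2 2 of 92 and the kinase gene Syk 1 of 27, with folds between 2.78 and 3.88 in the 2 KO libraries. The second Itpr2 region, chr6:146330805-146331173, had the highest of these, 3.43 and 3.88. The class II genes H2-Aa and H2-DMb2 had 1 each, at 2.79 and 3.29 and at 3.74 and 2.86, with WT peaks 175 to 405 bp away. Btg1, Sgk1 and Arid1a, genes mutated in human lymphomas, had 1 each, with folds of 2.53 to 3.45, and the cyclin gene Ccnd2 had 1 of 6, at 3.11 and 2.95. The window of Cd14, a monocyte receptor gene, had its only union region KO-only, at 3.35 and 3.33. That region lay 1.91 kb outside the gene, 514 and 489 bp from peaks of WT replicates 2 and 3. Icos had 2 of 9. Apart from the stronger regions of Icos and Prdm1, no region in these genes was above the medians of the KO-only class in both KO libraries. The calls in Spib, H2-Aa and H2-DMb2 were lost, leaving 0 KO-only regions, both with equal numbers of peaks in the lists and with peaks within 500 bp merged. Those in Traf2, Syk and Cd14 were lost with merging, and that in Btg1 with equal numbers of peaks. Prdm1 and Vav3 had 1 KO-only region with equal numbers of peaks, Rel had 1 with merging and Itpr2 had 1 when the KO peaks had to overlap each other by 50%. With peaks of at least 5-fold, each of the genes from Prdm1 to Icos had 0.

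The TET genes themselves, picked out because the series concerns them, held 0 KO-only regions: 0 of 8 union regions in Tet2, 0 of 9 in Tet1 and 0 of 22 in Tet3. Over all gene windows 1.23% of union regions were KO-only, so 0 among so few regions does not set these genes apart. WT-only regions numbered 2 in Tet3 and 0 in Tet1 and Tet2. In the Tet2 window 5 of 8 union regions were called in every library. Peaks of 5hmC measure neither the transcript nor the deleted part of Tet2, so they give no check of the genotype labels.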

How the data were processed

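Genomic DNA with 5hmC was immunoprecipitated and sequenced from germinal center B cells. Per the submitters' processing notes, reads were handled with MACS2 2.1.0.20151222 and BWA 0.7.12-r1039 on the mouse build GRCm38.p3, and no settings are listed. The authors deposited 1 peak list per immunoprecipitated library, not pooled, in the column layout of MACS2. The deposited lists give, for each peak, a summit position, a score, −log10 values of p and q, and the fold enrichment, which is a ratio over background. The deposited score was checked to be the whole part of 10 times the −log10 q for every peak except 1, in WT replicate 3. The deposited tables of differential regions carry a score whose scale, caller and compared libraries are not stated, and only their positions were used.

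Total reads are not known here. Reads at a summit and the local background were recovered from the fold and the −log10 p under the Poisson test of MACS2, within 0.001 of the deposited value. This failed for 1 peak of KO replicate 2 and for 7 of WT replicate 2, and worked for all others.

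Peaks were merged where they touched or overlapped, and a library had a region when its peaks overlapped it by at least 1 bp. The strongest peak by −log10 q stood for a library in a region. Gene spans were RefSeq's for GRCm38.p6, which has the same coordinates on primary chromosomes as GRCm38.p3. The span table lists no exons, so exonic, intronic and UTR positions could not be separated. It has 20665 protein-coding genes on autosomes. A region in the windows of several genes counts once per gene. Shares carry 95% Wilson intervals, and limits for 0 use 3 counts, both for counting error only. CG pairs were counted in the RefSeq promoter windows, where a pair reads the same on both strands.

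The members and lists were chosen with earlier results of these data known. By rule, the text names the 10 strongest KO-only regions by the lower −log10 q of the KO libraries, the 5 widest, those in the authors' KO-higher table, up to 10 on promoter windows (the text describes some of them), and 3 just inside and 3 just outside the rule. It names the 12 genes with the most KO-only regions, the 8 with the largest share among genes with at least 3, and up to 3 per list. Some items that these rules select are not reported here. Alternatives were stricter peaks, equal list lengths, other merging and overlap, leaving out each library, sex chromosomes, other gene sets and windows. Python 3.11.15, pandas 2.3.3, NumPy 2.4.6, SciPy 1.17.1 and matplotlib 3.10.9 were used, and the merging was tested on simulated peaks.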

Additional observations from a re-analysis of the deposited data

How the results depend on the processing

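The number of KO-only regions depends on how strong a peak must be and on having 2 libraries per genotype. With peaks of at least 5-fold in all 4 lists, 711 regions met the rule, and they overlapped 0 of the 4402, because no KO-only region had 5-fold peaks in both KO libraries. Those 711 had a mean median fold of 5.36, a median peak width of 388 bp against 318 ± 44.5 bp (SD, n = 2), 31.8% inside genes, 4.08% near gene ends and 0.563% in the authors' deposited tables. Leaving out each library in turn gave 9258 to 22464 regions, a fold of 3.45 to 3.68, a width of 281 to 347 bp, 35.1 to 38.3% inside genes, 5.04 to 6.22% near gene ends, 0.0655 to 0.464% in the authors' deposited tables, and a KO minus WT difference of 0.09 to 0.46 points in the neighbouring regions. By construction each of these sets holds all 4402 regions and many more. With all annotated genes 40.8% lay inside a gene and 11.3% near a gene end, with any base counted 38.7% lay inside a gene, and with a window of 5 kb 11.9% lay near a gene end.

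Other settings moved the number less than 1.5 times: 4397 regions at a −log10 q of at least 3, 5030 with equal list lengths, 3856 with peaks within 500 bp merged, 4377 with KO peaks overlapping each other by 50% or more of the shorter, and 4695 with X and Y. The neighbourhood difference was 0.42 points within 5 kb and 0.03 within 50 kb. Of 36 named genes, 36, 29, 27, 35 and 36 kept a count within 1.5 times under those 5 settings, and 0 did at 5-fold. With equal lists 4 of them had 0 KO-only regions, and with merging 7. Leaving out KO replicate 2, KO replicate 3, WT replicate 2 or WT replicate 3 kept 15, 23, 27 and 26 within 1.5 times. The position and list shares by setting and the neighbourhood values were added after seeing the data. KO-only calls rest on 26 to 164 reads at a summit in the KO libraries. The lists hold no value for uncalled places, so a WT signal under the caller's limit was not detectable. With the replicate number as a block, the neighbourhood difference was -0.10 points for number 2 and 0.64 for number 3, a mean of 0.27; the labels do not say that a number marks a shared animal or day. The other results use all 4 libraries at once and have no paired form.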

Other observations

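Gene families counted by symbol gave shares near the background of 1.23% of union regions in gene windows. Olfactory and vomeronasal receptor genes had 14 KO-only regions of 1198 (1.17%), beside 1.59% WT-only. At least 1 KO-only region was held by 13 of their 711 windows (1.83%), beside 8.66% of all gene windows with a union region. Zinc finger genes of the Zfp series had 16 of 1925 (0.831%), beside 1.87% WT-only. Protocadherin genes, which encode neuronal adhesion proteins, had 9 of 807 (1.12%), beside 9 WT-only regions. Cytosolic ribosomal protein genes had 2 of 161 (1.24%), beside 10 WT-only regions (6.21%). In genes with a span over 300 kb, 315 of 533 windows (59.1%) held at least 1 KO-only region, beside the same 8.66%.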
